A study of Homo sapiens with 27 samples.

Results

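U937 cells that had received matrine at 0.8 mg/ml 30 min earlier were compared with control U937 cells, over all genes with a mean level above 1 FPKM in the 6 libraries. FPKM is the number of sequenced fragments of a gene, scaled to its transcript length and to the size of the library. That rule took 11587 of the 57905 gene identifiers in the deposited table, and 6 of the 27 samples of the series. U937 is a human line of monocytic leukemia cells, labelled here as myeloid leukemia cells, and matrine is a plant alkaloid of the quinolizidine class. RPMI medium with fetal bovine serum was used for culture, and the vehicle named for matrine was ddH2O. Neither group carried a genetic change. The culture time of the control is not given in the sources used here, and nothing in the labels says that the 3 libraries of a group came from separate cultures, so the p-values measure only the spread between these libraries, which may be technical. The 3 U937 libraries of 24 h matrine entered the same fit, and their values stand beside those of 30 min where a gene is followed further.

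Within 30 min the mRNAs that can change most are those that are made and destroyed quickly. Immediate early genes such as EGR1 and JUN, chemokine and cytokine genes, and the feedback inhibitors of growth factor and TGF-beta signaling belong to this kind: they are typically short genes with few introns, and many of their mRNAs carry AU-rich elements in the 3′ untranslated region (3′UTR), where proteins of the ZFP36 family bind and speed their decay. MYC, the transcription factor that the study follows, is itself encoded by an mRNA with a short half-life.

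Total counts lay between 17314931 and 20796079 in the controls and between 20402383 and 21930018 at 30 min, mitochondrial genes took 3.59% to 3.86% of the counts, and the 10 most abundant genes took 4.99% to 5.2%. The libraries showed the myeloid character of the line. The summed level of 16 identity genes, among them PRTN3, ELANE, CTSG and LYZ, was 3076 to 3478 FPKM in the controls and 3194 to 3367 FPKM at 30 min, although MPO and CD68 stayed below 1 FPKM in every library of both groups. For 24 markers of other cells the sums were 8.78 to 10.9 FPKM and 8.60 to 10.1 FPKM, with 20 of the 24 below 1 FPKM.

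After 30 min of matrine, 63 genes were lower and 11 were higher than in the control, together 0.639% of the genes tested. A gene was called when the adjusted p of edgeR's quasi-likelihood test was below 0.05 (Benjamini-Hochberg over the 11587 genes) and the fold change was at least 1.5. The background to every count of called members below is therefore 0.544% of tested genes called lower and 0.0949% called higher. In each of the 63 lower genes all 3 matrine libraries lay below all 3 controls, an order seen in 8.36% of all tested genes, and in each of the 11 higher genes they lay above them, against 5.6% of all genes. The decreases reached further than the increases. The median fold change was 1.69 for the lower genes and 1.64 for the higher ones, but 23 of the lower genes and 1 of the higher ones changed at least 2-fold. The median log2 fold change over all tested genes was -0.0043. In these bulk libraries, fewer cells of a kind and less RNA per cell cannot be told apart.

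**Figure D1:**
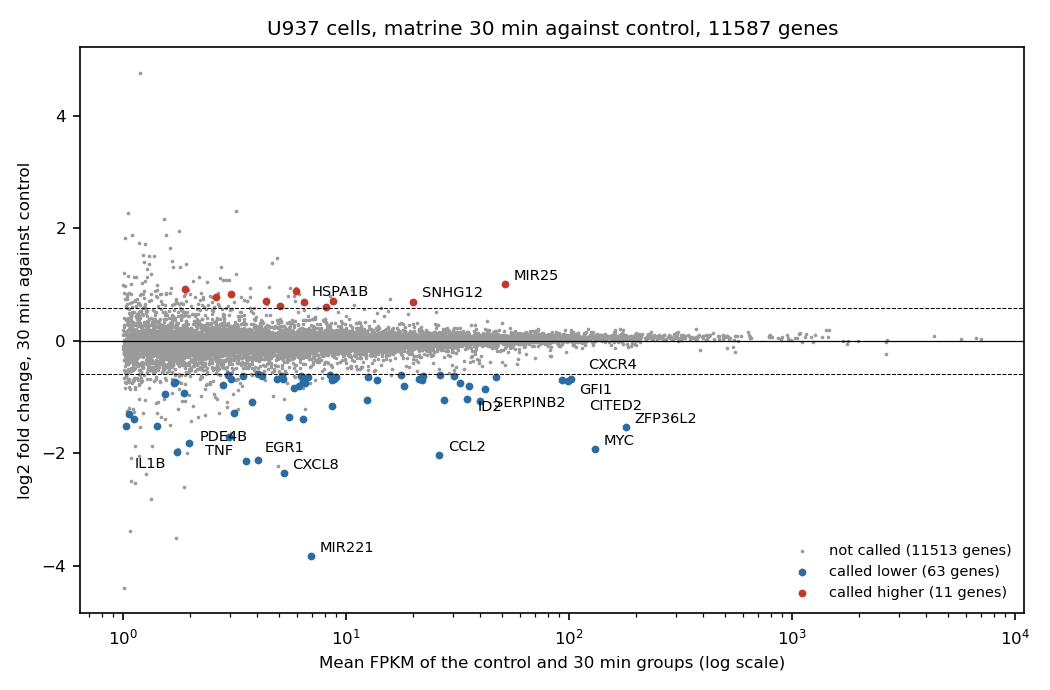
Each point is 1 of the 11587 genes tested, with its mean FPKM over the control and 30 min groups on a log axis and its log2 fold change at 30 min against control; dashed lines mark a 1.5-fold change. The 63 genes called lower (blue) reach further from 0 than the 11 called higher (red), and among the blue points MYC and ZFP36L2 have the highest levels.

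Among the decreases, those of MYC and ZFP36L2 concerned abundant mRNAs. MYC (ENSG00000136997; GRCh38 chromosome 8, 127735434 to 127742951, plus strand) stood at 204, 213 and 204 FPKM in the 3 control libraries and at 49.1, 55.1 and 58.0 FPKM in the 3 libraries of 30 min, or 26.3% of the control level in the fit (edgeR, log2 fold change -1.93, standard error 0.06, adjusted p = 2.7e-14). ZFP36L2, a zinc finger protein that binds AU-rich elements and promotes mRNA decay (ENSG00000152518; GRCh38 chromosome 2, 43222402 to 43226606, minus strand), fell from 276, 271 and 256 FPKM to 87.5, 97.5 and 91.3 FPKM. For both genes the groups lay far apart and the spread within a group was small. At 24 h the ZFP36L2 level was 168, 169.5 and 161 FPKM, between the levels of control and 30 min, while MYC stood at 42.2, 46.1 and 43.1 FPKM.

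The immediate early transcription factors and their companions gave the largest number of calls of any list. Of 33 tested members 7 were lower, or 21.2%, and none was higher. Their median log2 fold change was -0.27, and 26 of the 33 lay below 0, against 5971 of all 11587. In 17 members all matrine libraries were under all controls, an order seen in 8.36% of all tested genes. EGR1, a zinc finger factor induced within minutes by growth factors (ENSG00000120738; GRCh38 chromosome 5, 138465479 to 138469303, plus strand), was measured at 6.37, 7.54 and 5.74 FPKM in the control and at 1.34, 1.52 and 1.64 FPKM at 30 min (edgeR, log2 fold change -2.12, standard error 0.13, adjusted p = 7.7e-10). Its 3 matrine libraries were close together, and the fitted level was 23.0% of the control. JUN, a subunit of the AP-1 factor, went from 12.03, 12.3 and 11.4 FPKM to 4.74, 5.17 and 6.07 FPKM (edgeR, log2 fold change -1.15, adjusted p = 4.1e-08). JUNB, another AP-1 subunit, was more abundant and changed less, from 57.3, 61.5 and 53.1 FPKM to 37.4, 33.8 and 37.8 FPKM, and its log2 fold change of -0.65 dropped to -0.58 without replicate 2 of the control and to -0.57 without replicate 2 of 30 min, under the 1.5-fold threshold. HOOK2 lies on the opposite strand of JUNB and had a log2 fold change of 0.06.

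Of the other called members, IER3 is an early gene linked to the control of cell survival, KLF10 a zinc finger factor induced by TGF-beta, CEBPB a bZIP factor of myeloid cells and GADD45A a stress-induced regulator of growth arrest. IER3 was scarce, with 33, 43 and 42 reads in the control and 10, 22 and 13 at 30 min. Its log2 fold change of -1.50 stayed negative but lost its call without replicate 1 of 30 min (-1.25, edgeR adjusted p = 0.078) and without replicate 3 (-1.42, edgeR adjusted p = 0.053). KLF10 fell from 7.95, 7.75 and 7.83 FPKM to 3.87, 4.33 and 5.2 FPKM, and CEBPB from 37.4, 48.0 and 36.9 FPKM to 23.9, 23.0 and 25.1 FPKM. The groups of both genes were well apart, although replicate 2 of the control was the highest library for CEBPB by a wide gap. GADD45A had a log2 fold change of -0.69, which was -0.57 without replicate 2 of the control and lost its call without replicate 3 of 30 min too (-0.62, edgeR adjusted p = 0.0502). CEBPB stands on 3 of the lists and KLF10 on 2, and each is counted under every list that holds it.

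Not every member of this list was called. FOS, the partner of JUN in AP-1, was at 2.52, 3.43 and 3.53 FPKM in the control and at 2.23, 1.92 and 2.45 FPKM at 30 min (edgeR, log2 fold change -0.51, adjusted p = 0.085), named after its values were seen. IER2 passed the adjusted p but not the fold threshold (edgeR, log2 fold change -0.52, adjusted p = 0.00036), and so did ETS2 (log2 fold change -0.26, edgeR adjusted p = 0.017). BHLHE40, named after its values were seen, did so too (edgeR, log2 fold change -0.45, adjusted p = 0.00033). The log2 fold change was 0.01 for JUND, 0.05 for SRF, the serum response factor that drives EGR1 and FOS, and 0.01 for PPP1R15A. Among members of a similar kind the changes thus reached from more than 4-fold down to near 0.

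The promoter of EGR1 is shown because it held, alone among the 46 promoters matched for genes called lower, copies of the CArG box, the sequence bound by SRF. The CArG box was searched as CC, 6 bases of A or T, and GG, on both strands, in windows from 250 bases before to 50 bases after the RefSeq transcription start (GRCh38.p14). The EGR1 window is chr5:138465229-138465528, plus strand, 5′ to 3′, with its CArG boxes in capitals, which begin 105 and 83 bases before the start.
EGR1: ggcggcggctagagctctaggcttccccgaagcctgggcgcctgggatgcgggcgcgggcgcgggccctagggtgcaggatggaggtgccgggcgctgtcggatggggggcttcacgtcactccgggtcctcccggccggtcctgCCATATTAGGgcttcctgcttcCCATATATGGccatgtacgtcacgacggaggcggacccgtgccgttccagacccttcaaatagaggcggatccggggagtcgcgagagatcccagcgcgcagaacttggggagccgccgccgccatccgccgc
A CArG box was found in 1 of those 46 promoters, or 2.17%, and in 87 of the 8356 promoters of all tested genes, or 1.04%.

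Chemokine and cytokine genes made up 4 of the 6 largest decreases. Of 17 tested members these 4 were lower, or 23.5%, and none was higher. Only 46 of the 54 listed genes were matched to an identifier by symbol. CCL3, CCL4, CCL5 and CCL23 were among those not matched, so the count leaves them out. CXCL8, the neutrophil chemoattractant interleukin 8 (ENSG00000169429; GRCh38 chromosome 4, 73740519 to 73743716, plus strand), was at 8.20, 9.85 and 8.46 FPKM in the control and at 1.80, 1.86 and 1.47 FPKM at 30 min (edgeR, log2 fold change -2.35, standard error 0.13, adjusted p = 3.0e-10). CCL2, which attracts monocytes (ENSG00000108691; GRCh38 chromosome 17, 34255274 to 34257208, plus strand), was the most abundant of the 4 and went from 43.6, 41.6 and 41.1 FPKM to 8.70, 11.2 and 10.9 FPKM (edgeR, log2 fold change -2.03, adjusted p = 2.3e-11). Both chemokines were also called lower at 24 h, with 1.69, 1.9 and 1.73 FPKM for CXCL8 and 8.26, 9.16 and 9.62 FPKM for CCL2.

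The inflammatory cytokines TNF and IL1B fell as well. TNF went from 5.68, 5.70 and 6.06 FPKM to 0.93, 1.39 and 1.61 FPKM (edgeR, log2 fold change -2.14, standard error 0.17, adjusted p = 4.4e-08). IL1B went from 2.75, 2.57 and 3.00 FPKM to 0.72, 0.66 and 0.71 FPKM (edgeR, log2 fold change -1.97, standard error 0.16, adjusted p = 8.1e-08). At 24 h TNF was at 3.48, 4.01 and 3.41 FPKM and still called lower than the control (edgeR, log2 fold change -0.71, adjusted p = 0.00028). IL1B was at 2.17, 2.93 and 2.71 FPKM at 24 h and was not called (edgeR, log2 fold change -0.12, adjusted p = 0.46).

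The most abundant tested members of the list, MIF, TGFB1 and IL32, gave no call. TGFB1 had a log2 fold change of -0.01 at a control mean of 94.2 FPKM, MIF one of 0.03 at 131 FPKM and IL32 one of 0.04 at 74.0 FPKM, with standard errors from 0.06 to 0.09. VEGFA and TNFSF9 had values of -0.19 and -0.31 and did not pass the test. Members below the filter were read in the fit without it, over 18705 genes with at least 10 reads, and 2 more were lower there, named after their values were seen. OSM, the cytokine oncostatin M, had 57, 57 and 60 reads in the control and 22, 22 and 14 at 30 min (edgeR, log2 fold change -1.68, adjusted p = 0.00016), and CCL20 had 18, 19 and 12 against 5, 3 and 2 (edgeR, log2 fold change -2.35, adjusted p = 0.0070).

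CXCL8 and F3, the gene of tissue factor, carried both an NF-kappaB and an AP-1 motif in their promoters, and are printed for that reason. The motifs were searched as GGANTTTCC for NF-kappaB, TGACTCA for AP-1 and TATAAA for the TATA box, on both strands, and stand in capitals. The CXCL8 window is chr4:73740319-73740618 on the plus strand and that of F3 chr1:94541710-94542009 on the minus strand, both read 5′ to 3′ along the gene.
CXCL8: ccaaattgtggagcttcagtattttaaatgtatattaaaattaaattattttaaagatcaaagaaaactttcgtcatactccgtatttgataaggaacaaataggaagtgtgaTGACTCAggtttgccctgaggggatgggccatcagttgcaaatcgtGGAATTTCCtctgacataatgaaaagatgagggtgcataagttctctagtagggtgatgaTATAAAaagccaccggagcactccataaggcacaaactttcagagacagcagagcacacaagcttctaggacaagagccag
F3: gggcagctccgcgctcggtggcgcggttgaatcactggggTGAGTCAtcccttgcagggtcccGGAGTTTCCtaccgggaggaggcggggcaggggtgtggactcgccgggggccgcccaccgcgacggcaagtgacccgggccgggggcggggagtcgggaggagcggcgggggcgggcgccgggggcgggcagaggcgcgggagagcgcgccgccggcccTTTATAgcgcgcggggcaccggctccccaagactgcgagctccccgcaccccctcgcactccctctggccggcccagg
In CXCL8 the NF-kappaB motif begins 91, the AP-1 motif 137 and the TATA box 31 bases before the start, and in F3 the distances are 187, 210 and 28 bases, with the AP-1 motif and the TATA box of F3 on the opposite strand.

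Over the 46 lower genes with a matched promoter, the NF-kappaB motif was found in 3, or 6.52% (CXCL8, DUSP6 and F3), against 1.6% of all 8356 promoters, and the AP-1 motif also in 3, or 6.52% (CXCL8, F3 and PRADX), against 2.69%. A TATAAA was found in 9 of the 46, or 19.6%, against 4.95% of all promoters; the 9 were CXCL8, CXCR4, F3, ID1, JUNB, LINC02470, SERPINB2, TENT5A and TNF. The E-box CACGTG, which MYC and MAX bind, was in 3 of the 46, or 6.52%, against 11% of all promoters (917 of 8356), and 2 of 46, or 4.35%, among genes called lower by DESeq2, and the cAMP response element TGACGTCA was in 0 of 46 against 3.54%. These are counts of letters in a window of 300 bases and carry no test.

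The genes of mRNA turnover gave few calls. At an unadjusted p below 0.05 in edgeR 6 of 33 tested members were lower and 2 higher, against 11.1% of all tested genes in either direction. The list had a median of -0.02 on the log2 scale, and of its 33 members 2 were called lower, or 6.06%. The members were ZFP36L2, given above, and TENT5A, a poly(A) polymerase of the TENT5 family, which went from 38.6, 34.6 and 38.7 FPKM to 17.2, 19.6 and 16.6 FPKM (edgeR, log2 fold change -1.06, standard error 0.07, adjusted p = 1.2e-09). TENT5A stayed at 18.7, 18.7 and 17.9 FPKM at 24 h. Other abundant AU-rich element binding proteins of the list were near 0 in log2 fold change: -0.05 for ELAVL1 (HuR), -0.01 for HNRNPD (AUF1), 0.05 for KHSRP and -0.02 for TIAL1. ZFP36, of the same family as ZFP36L2 and named after its values were seen, was scarcer. It went from 4.93, 5.34 and 5.6 FPKM to 4.29, 3.75 and 3.63 FPKM and was not called (edgeR, log2 fold change -0.43, adjusted p = 0.074). ZFP36L1 lay below the filter. CNOT1, the scaffold of the deadenylase complex, was at -0.01 and PUM2 at -0.06. TOB2, named after its values were seen, was higher by the adjusted p but not by the fold threshold (edgeR, log2 fold change 0.43, adjusted p = 0.0030).

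The AU-rich elements themselves were read from the canonical GENCODE transcripts. Of the 50 protein-coding genes called lower, 46 carried the pentamer ATTTA at least once in the 3′UTR, or 92.0%, against 72.2% of the 9708 protein-coding genes tested, and 36 carried it 3 times or more, or 72.0%, against 45.7%. The stricter nonamer TTATTTATT, bound by the ZFP36 proteins, was in 14 of the 50, or 28.0%, against 9.0% of all. The 3′UTRs of the lower genes were not longer than those of the others, with a median of 1237 bases against 1276, and their density of ATTTA was 3.34 per kilobase against 2.25. For the higher genes, of which 6 were protein-coding, the density was 3.65 and none held the nonamer. Only 1 of these 6, or 16.7%, held 3 or more ATTTA, namely DNAJB9 with 8 copies. The share of genes called lower was 0.148% with no ATTTA, 0.388% with 1 or 2, 1.07% with 3 to 5 and 1.26% with 6 to 9, but 0.0725% with 10 or more, where 1 gene of 1380, TENT5A, was lower.

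For 4 of the lower genes with a nonamer, chosen after their values were seen, the 30 bases of the 3′UTR with the most copies of ATTTA are printed 5′ to 3′ to show how the copies overlap, with the copies in capitals.
TNF: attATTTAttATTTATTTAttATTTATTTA
CXCL8: taacctATTTAttATTTAtgtATTTATTTA
PIM1: gtcaatgttatgtATTTATTTATTTATTTA
IL1B: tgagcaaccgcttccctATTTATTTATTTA
The TNF window spans bases 462 to 491 of a 3′UTR of 799 bases with 9 ATTTA and 5 nonamers, the CXCL8 window bases 644 to 673 of 1252 with 9 and 1, the PIM1 window bases 889 to 918 of 1337 with 5 and 3, and the IL1B window bases 329 to 358 of 610 with 6 and 2. The size of the decrease did not follow the number of copies in these genes: TNF, CXCL8 and IL1B fell about 4-fold or more, PIM1 by 1.52-fold, while EGR1 and CCL2, each with 1 ATTTA, fell more than 4-fold. Among the other lower genes with a nonamer, ZFP36L2 had a log2 fold change of -1.53 and JRKL, named after its values were seen, one of -0.93. Of the 50 genes, TMEM238, GPR84, NENF and TIGD2 held no ATTTA at all, and each of these 4 lost its call without at least 1 library.

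The lower genes were also short and simple in structure. The median number of exons in the canonical transcript was 3 for the 50 lower protein-coding genes and 9 for all 9708, and the median gene length was 5692 bases against 31712.5. Genes with 1 to 4 exons made up 36 of the 50, or 72.0%, and 1845 of the 9708, or 19.0%. Of 170 genes with a single exon 8 were lower, or 4.71%, led by JUN (log2 fold change -1.15), CEBPB (-0.75), LCMT2 (-0.72) and C3orf80 (-0.69). With 2 exons it was 14 of 398, or 3.52%, with EGR1, ZFP36L2, IER3 and TMEM238 in front, and with 3 or 4 exons 14 of 1277, or 1.1%, with CXCL8, TNF, CCL2 and MYC. The share went down to 0.344% with 5 to 8 exons, 0.0622% with 9 to 16 and 0.147% with 17 or more.

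Genes with 9 or more exons were rarely lower, 5 of 5250 or 0.0952%. PDE4B, with 17 exons, encodes a phosphodiesterase that breaks down cAMP and went from 3.06, 2.98 and 3.17 FPKM to 0.79, 0.81 and 0.99 FPKM (edgeR, log2 fold change -1.82, standard error 0.10, adjusted p = 3.0e-10). JAG1, a Notch ligand with 26 exons, had a log2 fold change of -0.68, and STRN3, with 18 exons, one of -0.60; STRN3 lost its call without replicate 1 of the control (-0.50), without replicate 1 of 30 min (-0.58) and without replicate 3 of 30 min (-0.55). Few exons and many ATTTA often came in the same gene: 23 of the 50 lower genes, or 46.0%, had both 1 to 4 exons and 3 or more ATTTA, against 756 of all 9708, or 7.79%. Of those 756 genes 3.04% were called lower, against 0.302% of the other 8952. These joint classes were chosen after the single ones were seen.

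**Figure D2:**
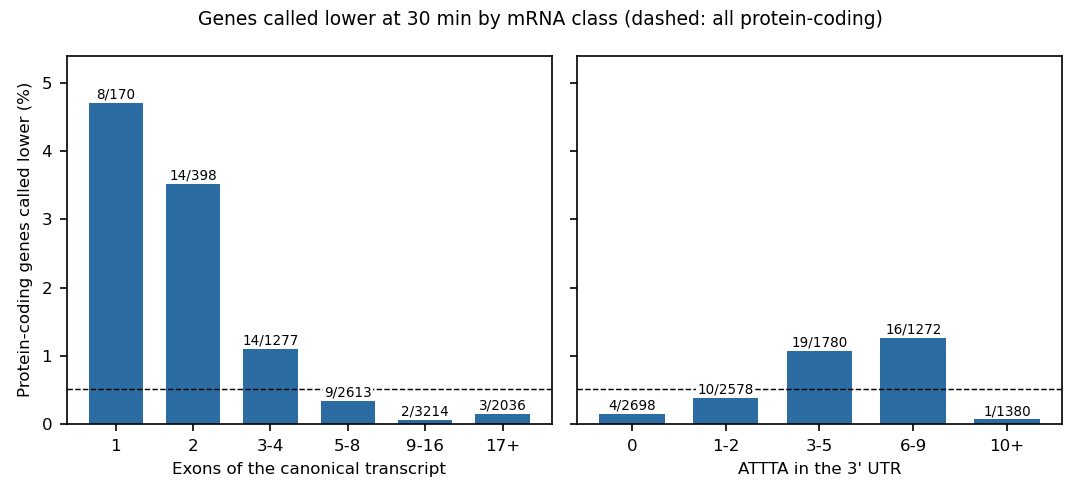
Bars give the percentage of tested protein-coding genes called lower at 30 min, by number of exons in the canonical transcript (left) and by number of ATTTA in its 3′UTR (right), with the number lower over the number tested above each bar and the share over all protein-coding genes, 0.515%, as a dashed line. The share is 4.71% for single-exon genes and 0.0622% at 9 to 16 exons, and on the right it is highest, 1.26%, at 6 to 9 copies.

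The feedback inhibitors of growth factor and TGF-beta signaling were a further group. Of 12 tested MAPK feedback genes 2 were lower, or 16.7%. DUSP6, the phosphatase that inactivates ERK, went from 16.7, 16.4 and 17.2 FPKM to 7.91, 8.07 and 8.17 FPKM (edgeR, log2 fold change -1.05, standard error 0.07, adjusted p = 2.6e-09), and SPRY2, an inhibitor of receptor tyrosine kinase signaling, from 24.3, 22.4 and 23.0 FPKM to 13.5, 13.3 and 12.7 FPKM (edgeR, log2 fold change -0.81, adjusted p = 8.1e-08). The spread within each group was small beside these shifts. At 24 h DUSP6 stood at 17.6, 20.5 and 18.8 FPKM, around its control level. DUSP2 passed the adjusted p but not the fold threshold (edgeR, log2 fold change -0.52, adjusted p = 0.022), and DUSP5 had a log2 fold change of 0.29 that did not pass. SPRY1, below the filter, had 52, 67 and 42 reads in the control and 22, 21 and 16 at 30 min, and was lower in the fit without the filter (edgeR, log2 fold change -1.54, adjusted p = 0.0014), named after its values were seen.

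Among TGF-beta and BMP target and feedback genes 5 of 24 tested were lower, or 20.8%, though the list's median was -0.03. ID2 and ID1 encode helix-loop-helix proteins that hold back differentiation, SMAD7 is the inhibitory SMAD, BAMBI is a receptor that lacks a kinase, and KLF10 was given above. ID2 went from 45.8, 49.0 and 45.6 FPKM to 20.7, 23.6 and 23.9 FPKM (edgeR, log2 fold change -1.03, standard error 0.07, adjusted p = 2.4e-09) and BAMBI from 14.8, 16.4 and 15.1 FPKM to 10.0, 9.28 and 9.89 FPKM. ID1 had a log2 fold change of -0.65, but -0.54 without replicate 2 of the control. SMAD7 was scarce, at 2.02, 1.94 and 2.47 FPKM in the control and 1.40, 1.00 and 1.45 FPKM at 30 min, and lost its call without replicate 3 of the control (log2 fold change -0.62, edgeR adjusted p = 0.13) and without replicate 2 of 30 min (-0.55, edgeR adjusted p = 0.085). The receptors and signal carriers of the pathway stayed near 0, with a log2 fold change of -0.09 for TGFBR1, 0.06 for TGFBR2 and -0.06 for SMAD3.

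Of 13 tested genes of PIM kinases and SOCS feedback 1 was lower, or 7.69%. PIM1, a kinase induced by cytokines, went from 32.0, 32.4 and 31.6 FPKM to 20.2, 21.6 and 21.1 FPKM, with a log2 fold change of -0.60 close to the threshold and of -0.57 without replicate 1 of 30 min. PIM3 had a value of -0.39 (edgeR adjusted p = 0.0025) and PIM2 of 0.10, while the JAK and STAT members among the most abundant of the list, JAK1, STAT3, STAT5A and STAT5B, lay between -0.10 and 0.06.

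Of 24 tested members of the list of G-protein signaling and receptors 4 were lower, or 16.7%, and the median was -0.15. CXCR4, the receptor for CXCL12, was the most abundant, at 124, 130.1 and 124.6 FPKM in the control and 78.5, 74.9 and 81.5 FPKM at 30 min (edgeR, log2 fold change -0.68, standard error 0.05, adjusted p = 5.7e-08). RGS16, which speeds GTP hydrolysis by G-alpha subunits, went from 10.01, 11.7 and 10.95 FPKM to 6.43, 6.32 and 7.39 FPKM. RGCC went from 25.8, 28.9 and 24.1 FPKM to 17.6, 15.5 and 15.7 FPKM. It is counted here because the list holds it, but it is a regulator of the cell cycle and not a receptor or RGS gene. GPR84, a receptor for medium-chain fatty acids, had a log2 fold change of -0.63. It lost its call without replicate 1 or 3 of the control (both -0.61) and without replicate 1 (-0.61) or 2 (-0.50) of 30 min, with edgeR adjusted p from 0.051 to 0.062. GPR183 passed the adjusted p but not the fold threshold (edgeR, log2 fold change -0.44, adjusted p = 0.00031), and the abundant RGS19 and P2RY8 were at -0.03 and 0.02.

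In the plasminogen and coagulation list 3 of 9 tested members were lower, or 33.3%, the highest share of any list on few genes. F3, which starts the clotting cascade, fell from 2.14, 2.10 and 2.09 FPKM to 0.79, 0.66 and 0.73 FPKM (edgeR, log2 fold change -1.52, standard error 0.17, adjusted p = 9.7e-06). SERPINB2, an inhibitor of plasminogen activators, went from 57.0, 50.6 and 55.2 FPKM to 28.6, 31.7 and 29.2 FPKM (edgeR, log2 fold change -0.85, adjusted p = 2.4e-08), and THBD, thrombomodulin, from 7.97, 7.82 and 8.15 FPKM to 4.42, 5.02 and 5.48 FPKM. No library of one group overlapped the other in these 3 genes. PLAU, the urokinase gene, passed the adjusted p but not the fold threshold (edgeR, log2 fold change -0.52, adjusted p = 0.00036), whereas its receptor PLAUR had a log2 fold change of -0.11.

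**Figure D3:**
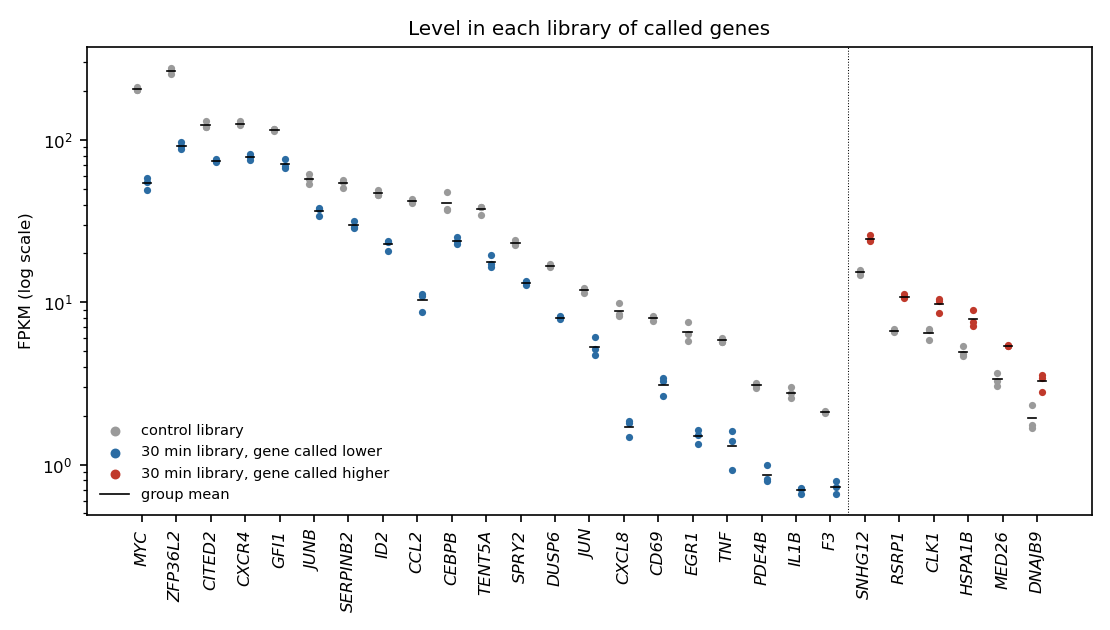
Each dot is the FPKM of 1 library on a log axis, for 21 genes called lower (left of the dotted line) and 6 called higher, with control libraries in grey, 30 min libraries in colour and group means as black bars. In each gene drawn the 3 libraries of 30 min lie wholly on 1 side of the 3 controls, with wide gaps for MYC, CCL2, CXCL8, EGR1, TNF, PDE4B and IL1B.

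Among transcription factors of the myeloid lineage 2 of 18 tested members were lower, or 11.1%, and the median log2 fold change was -0.20. In 12 of the 18 all matrine libraries were under all controls, against 8.36% of all tested genes. GFI1, a transcriptional repressor of granulocyte development, went from 116, 114 and 116 FPKM to 67.6, 68.8 and 76.3 FPKM (edgeR, log2 fold change -0.69, standard error 0.05, adjusted p = 3.2e-08). The other called member was CEBPB. CEBPA had a value of -0.38 (edgeR adjusted p = 0.0066) and MYB one of -0.27 (edgeR adjusted p = 0.0038), both under the fold threshold, and SPI1, IKZF1 and RUNX3 lay between -0.06 and 0.02.

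Several pathways gave no call at 30 min beside MYC itself. In the MYC, MAX and MXD network MYC was the only member called among 9 tested, or 11.1%: MAX, the dimer partner of MYC, had a log2 fold change of 0.07, MNT one of 0.26 and MLX one of -0.25, and none of these passed. MXD1, a repressor that competes with MYC for MAX, was higher by the adjusted p but not by the fold threshold (edgeR, log2 fold change 0.48, adjusted p = 0.0093), named after its values were seen. MYCN was at 0 in every library, where 3 reads per library is the limit of detection used, and MYCL was at 0.69, 0.62 and 0.58 FPKM in the control and 0.53, 0.50 and 0.25 FPKM at 30 min.

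Of 52 tested genes of ribosome biogenesis and nucleotide synthesis none was called, with a median log2 fold change of 0.02 and values between -0.01 and 0.08 for NPM1, NCL, FBL, IMPDH2, NOLC1 and NOP56. At an unadjusted p below 0.05 in edgeR, which 11.1% of all tested genes reached in either direction, 1 gene of this list was lower and 1 higher. By the adjusted p of edgeR 1 gene of this list was higher, under the fold threshold. The same 11.1% is the background to the counts at an unadjusted p for the lists that follow. None of the 23 tested NF-kappaB subunits and feedback genes was called, nor did any pass the adjusted p of edgeR at any fold, while 4 were lower and 3 higher at an unadjusted p below 0.05. NFKBIA, the inhibitor that NF-kappaB itself induces, had a log2 fold change of 0.26, NFKB1 one of 0.02 and BCL2A1 one of -0.19. Among 27 tested G1 cyclins, CDK inhibitors and p53 targets none was called, with 3 lower and 1 higher at an unadjusted p below 0.05. By the adjusted p of edgeR 2 were lower, among them CDKN1B (p27) (edgeR, log2 fold change -0.51, adjusted p = 0.0034). CDK4, CCND3 and MCL1 lay between -0.06 and 0.07. Of 11 BET and P-TEFb genes none was called, with 0 lower and 3 higher at an unadjusted p below 0.05. HEXIM1, the inhibitor of P-TEFb, had a log2 fold change of 0.23 (edgeR adjusted p = 0.099), and BRD2 one of 0.16. The 16 tested genes of sterol synthesis, the 14 of U937 cell identity and the 4 markers of other cells gave no call either, with list medians of -0.0064, 0.06 and 0.07. At an unadjusted p below 0.05 in edgeR these lists had 3, 0 and 1 genes lower and none higher. By the adjusted p of edgeR 1 sterol gene was lower, under the fold threshold. DESeq2 and limma called no gene on any of these 7 lists.

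**Figure D4:**
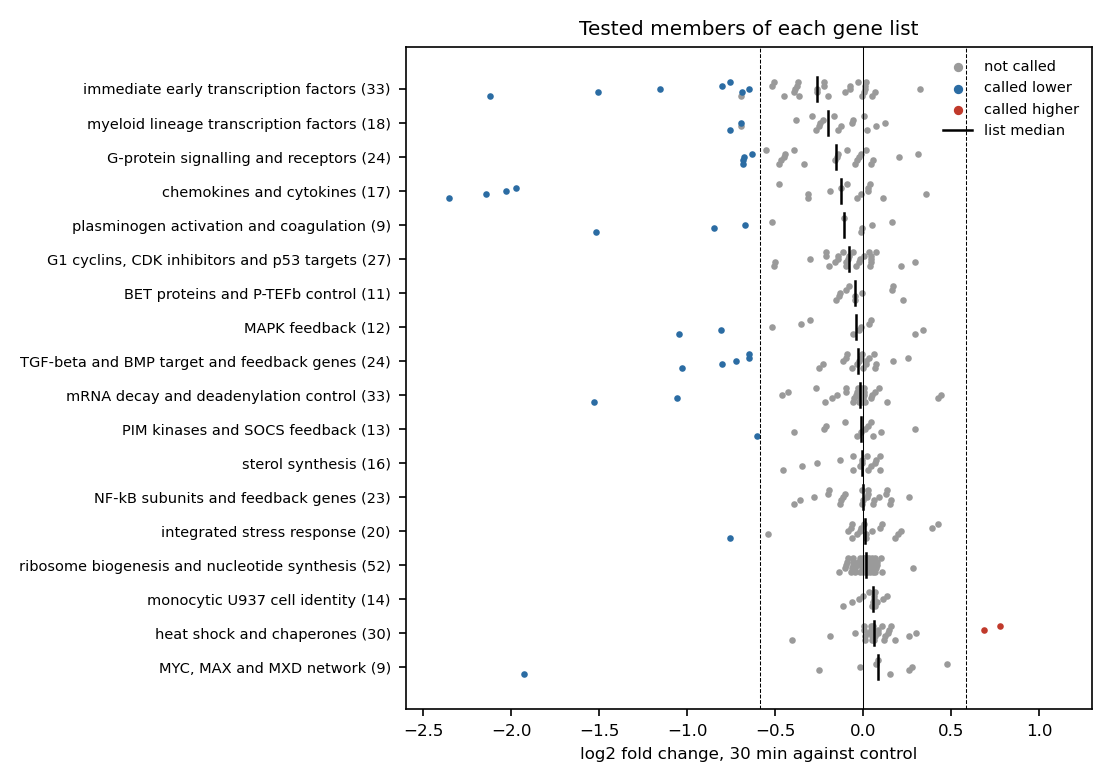
Each dot is a tested member of a gene list, placed by its log2 fold change at 30 min against control, with the list median as a black bar, dashed lines at a 1.5-fold change and the number tested after each name. Lower calls (blue) are most numerous in the top row, immediate early factors with 7, and higher calls (red) lie in the heat shock row, while ribosome biogenesis (52 genes) and NF-kB genes (23) gather around 0 with no call.

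The stress lists held the listed genes that were higher. Of 30 tested heat shock and chaperone genes 2 were higher, or 6.67%, and none lower, and the median was 0.06 with 3 of the 30 below 0. HSPA1B, an inducible HSP70, went from 4.81, 5.39 and 4.65 FPKM to 7.56, 7.18 and 9.01 FPKM (edgeR, log2 fold change 0.69, standard error 0.11, adjusted p = 0.0014), with the limit that HSPA1A is a near-identical copy whose reads cannot be told apart with certainty. DNAJB9, a co-chaperone of the endoplasmic reticulum, went from 1.69, 2.33 and 1.75 FPKM to 3.58, 3.41 and 2.80 FPKM (edgeR, log2 fold change 0.78, standard error 0.15, adjusted p = 0.0044). The abundant chaperones moved little, with log2 fold changes of 0.04 for HSP90AB1, 0.08 for HSPA8 and 0.11 for HSPA5. In the integrated stress response list 1 of 20 tested was called lower, or 5.0%, namely CEBPB, and none was called higher. By the adjusted p of edgeR at any fold 2 were lower, CEBPB among them, and 1 was higher. Over all tested genes these shares were 1.33% and 0.293%. ATF4 had a log2 fold change of 0.20 (edgeR adjusted p = 0.060) and XBP1 one of -0.07. Without replicate 1 of the control the list had 2 calls.

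Most of the genes that rose stood on no list. MED26, a subunit of Mediator that contacts the elongation machinery, went from 3.06, 3.28 and 3.69 FPKM to 5.45, 5.36 and 5.4 FPKM (edgeR, log2 fold change 0.71, standard error 0.09, adjusted p = 3.8e-05), and was back at 2.83, 2.99 and 2.95 FPKM at 24 h. SNHG12, a host transcript of small nucleolar RNAs, rose from 15.4, 14.8 and 15.8 FPKM to 24.3, 23.8 and 25.9 FPKM (edgeR, log2 fold change 0.70, standard error 0.06, adjusted p = 3.2e-07) and at 24 h was at 16.98, 17.4 and 16.8 FPKM. CLK1, a kinase of splicing factors, and RSRP1, a protein rich in arginine and serine, rose as well and were called higher at 24 h too. RSRP1 went from 6.69, 6.55 and 6.82 FPKM to 11.2, 10.7 and 10.6 FPKM and then to 16.4, 15.96 and 14.1 FPKM. CLK1 had a log2 fold change of 0.61, which was 0.54 without replicate 2 of the control and 0.55 without replicate 1 of 30 min, and RHBDL1, a rhomboid-like gene, one of 0.92 at low level, from 1.23, 1.51 and 1.2 FPKM to 2.35, 2.30 and 2.73 FPKM. Among 21 tested SNHG and GAS5 transcripts, a class chosen after SNHG12 was seen, 1 was higher, or 4.76%, and the median log2 fold change was 0.11.

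Of the remaining higher genes, ENSG00000269688 and ENSG00000262877 are lncRNAs named in GENCODE by their identifiers. ENSG00000269688 lies within HNRNPL on the same strand, had 47, 41 and 31 reads in the control and 61, 91 and 87 at 30 min, and lost its call without any of 5 libraries in turn, all but replicate 1 of 30 min, with edgeR adjusted p from 0.064 to 0.16 and log2 fold changes from 0.80 to 0.98. ENSG00000262877 (log2 fold change 0.63) lost its call in the same way without any of 5 libraries, all but replicate 2 of 30 min, with edgeR adjusted p from 0.065 to 0.17 and log2 fold changes from 0.53 to 0.66. ENSG00000218422, with no name in the tables used here, rose from 1.84, 2.31 and 2.46 FPKM to 3.71, 3.63 and 4.26 FPKM (edgeR, log2 fold change 0.83, standard error 0.13, adjusted p = 0.00064).

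The noncoding genes that fell included host transcripts of miRNAs. MIR222HG, the transcript from which miR-221 and miR-222 are cut, went from 4.35, 4.76 and 4.62 FPKM to 1.33, 1.59 and 1.23 FPKM (edgeR, log2 fold change -1.71, standard error 0.14, adjusted p = 5.2e-08) and stood at 1.99, 2.36 and 1.96 FPKM at 24 h. The MIR221 hairpin (ENSG00000207870; GRCh38 chromosome X, 45746157 to 45746266, minus strand) lies inside it on the same strand, and its 29, 32 and 22 reads in the control became 0, 1 and 5 at 30 min (edgeR, log2 fold change -3.82, standard error 0.56, adjusted p = 0.00031). This is the largest decrease of the 63 and also the call with the fewest reads. MIR23AHG and MIR142HG were lower with log2 fold changes of -0.84 and -0.70, and lie opposite ZSWIM4 and TSPOAP1-AS1. MIR142HG lost its call without replicate 2 of the control (-0.57) and without replicate 2 of 30 min (-0.53). Of 11 tested miRNA host genes, a class chosen after the calls were seen, 3 were lower, or 27.3%, and the median was -0.23.

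The labels name an mRNA library kit and no preparation of small RNA, so the counts at these loci are not taken here as levels of mature miRNAs. The 3p arms of the miRNAs encoded in the lower host transcripts are printed to show what the loci encode, and their 5p arms are left out; the sequences are from RefSeq (GRCh38.p14), 5′ to 3′, with the seed (bases 2 to 8) in capitals.
hsa-miR-221-3p: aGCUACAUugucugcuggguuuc
hsa-miR-222-3p: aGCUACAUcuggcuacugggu
hsa-miR-23a-3p: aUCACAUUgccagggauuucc
hsa-miR-27a-3p: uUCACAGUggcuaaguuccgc
hsa-miR-24-3p: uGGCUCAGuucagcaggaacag
hsa-miR-142-3p: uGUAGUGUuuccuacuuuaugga
miR-221-3p and miR-222-3p share the seed GCUACAU, and the other 4 seeds differ from it and from each other.

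MIR25 was the counterpart among the higher genes. Its hairpin (ENSG00000207547; GRCh38 chromosome 7, 100093560 to 100093643, minus strand) lies within MCM7 on the same strand and had 55, 58 and 53 reads in the control and 118, 114 and 131 at 30 min (edgeR, log2 fold change 1.01, standard error 0.17, adjusted p = 0.0014), while MCM7 as a whole had a log2 fold change of 0.08. It was the only gene called higher at a 2-fold change or more, and at 24 h its level of 38.8, 32.2 and 31.1 FPKM was near the 31.5, 35.7 and 36.4 FPKM of the control. Of 61 tested miRNA loci 1 was lower and 1 higher, or 1.64% each, and of 724 lncRNAs 8 were lower, or 1.1%, and 3 higher, or 0.414%. The leading lncRNAs after MIR222HG were ENSG00000265749 (log2 fold change -1.40), which lies opposite RPL26, and PRADX (-1.08), opposite CTSD. RPL26 and CTSD both had a log2 fold change of 0.01 and far more reads, and since the strand setting of the counting is not given in the sources used here, reads of a gene and its antisense partner cannot be told apart.

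Among classes with many members, the 167 tested RPL and RPS genes had no call and a median log2 fold change of 0.08, the 16 mitochondrially encoded genes none and a median of 0.0038, and the 15 histone genes none and a median of 0.09. Of 275 genes with a ZNF symbol 2 were lower, ZNF217 and ZNF503, or 0.727%, close to the share over all genes. ZNF217 had a log2 fold change of -0.75 and ZNF503 one of -0.61, and ZNF503 lost its call without replicate 1 of the control (-0.53), without replicate 2 of 30 min (-0.53) and without replicate 3 of 30 min (-0.56).

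Of the 74 called genes, 31 stood on a list and 43 on none. Among the 20 largest decreases, those on no list and not yet described were PRDM8, CD69, PLEKHA3P1, TMEM238 and ENSG00000207939. PRDM8, a PR domain factor, went from 9.36, 10.1 and 8.33 FPKM to 3.55, 3.69 and 3.27 FPKM (edgeR, log2 fold change -1.39, standard error 0.09, adjusted p = 3.1e-09) and stayed at 3.10, 3.32 and 3.31 FPKM at 24 h. CD69, an early activation antigen of leukocytes, went from 8.07, 7.66 and 8.28 FPKM to 3.41, 3.28 and 2.63 FPKM (edgeR, log2 fold change -1.35, standard error 0.11, adjusted p = 4.1e-08). The identifier ENSG00000207939, which no table used here pairs with a name, had 120, 120 and 101 reads in the control and 56, 63 and 57 at 30 min (edgeR, log2 fold change -1.07, standard error 0.15, adjusted p = 0.00021). The pseudogene PLEKHA3P1 and TMEM238 had log2 fold changes of -1.31 and -1.28 on few reads. PLEKHA3P1 lost its call in DESeq2 (-1.30, adjusted p = 0.090) and without any of the 3 libraries of 30 min in turn (edgeR adjusted p from 0.087 to 0.11, log2 fold changes from -1.38 to -1.21), and TMEM238 without replicate 3 of 30 min (-1.08, edgeR adjusted p = 0.057). CITED2, a partner of the coactivators CBP and p300 that is named after its values were seen, was abundant, at 120.2, 130.2 and 120.4 FPKM in the control and 73.3, 74.0 and 76.1 FPKM at 30 min (edgeR, log2 fold change -0.72, standard error 0.05, adjusted p = 2.7e-08).

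The levels at 24 h, set beside those of 30 min, split the lower genes into groups. Both comparisons share their control libraries, so the counts are a description. Of the 63 genes lower at 30 min, 23 were also called lower at 24 h, 32 were called in neither direction and 8 were called higher. Over all tested genes 11.4% were called lower and 13% higher at 24 h, so the 8 are near the share of all genes. MYC, CXCL8, CCL2, F3, PRDM8 and TENT5A were among those called lower at both times. EGR1, with 5.2, 5.35 and 5.67 FPKM, and JUN, with 9.91, 10.6 and 10.9 FPKM, were near their control levels, and ID2, at 60.7, 61.7 and 64.2 FPKM, was above it without reaching the fold threshold. Of the 11 genes higher at 30 min, 6 were called higher at 24 h, against the 13% of all genes, and 5 in neither direction, among them SNHG12, MED26, HSPA1B and MIR25. With 3 libraries a group, no gene taken alone could fall below p = 0.1 in an exact permutation test (two-sided), so the calls rest on the fit across genes.

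**Figure D5:**
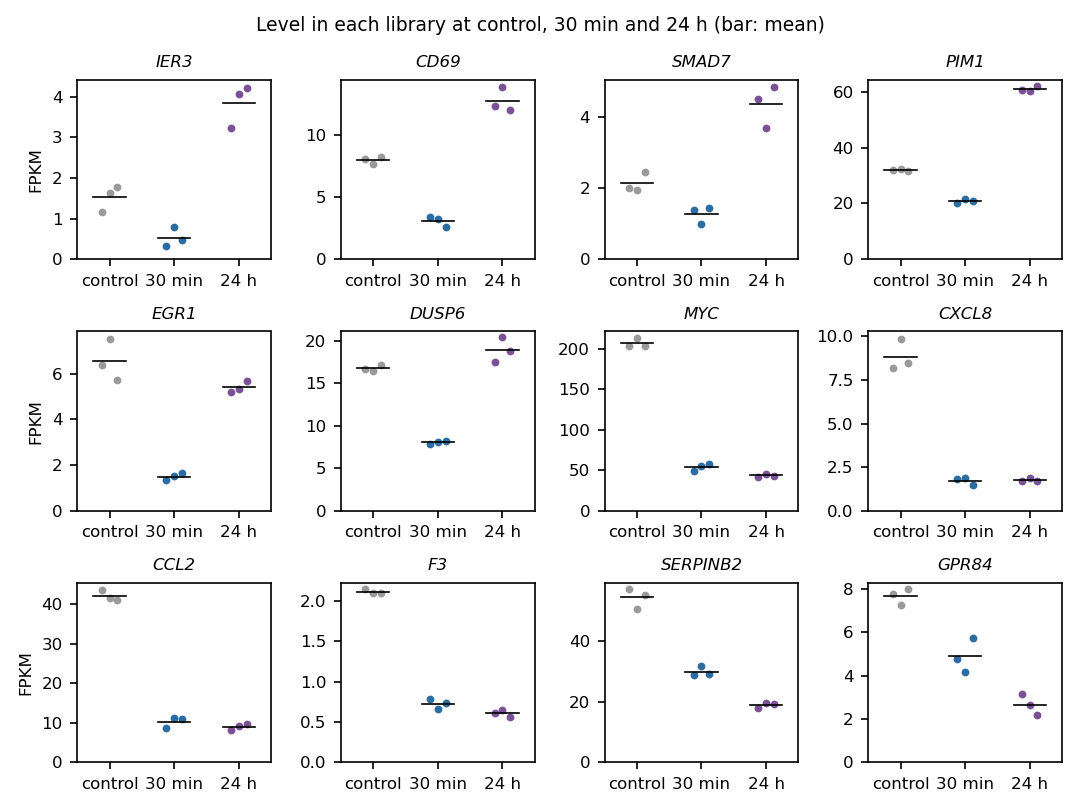
Each panel shows the FPKM of 1 gene in the 3 control libraries (grey), the 3 libraries of 30 min (blue) and the 3 of 24 h (purple), with group means as bars and an axis from 0. IER3, CD69, SMAD7 and PIM1 lie below the control at 30 min and above it at 24 h, EGR1 and DUSP6 are back near the control, MYC, CXCL8, CCL2 and F3 stay low, and SERPINB2 and GPR84 are lowest at 24 h.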

How the data were processed

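RNA-seq of U937 cells was analysed in 3 control libraries, 3 of 30 min matrine and 3 of 24 h. The submitters' processing notes name cutadapt 1.9.1, HISAT2 2.0.1 and HTSeq 0.6.1. The genome build is uncertain: the paper names hg38 and the notes GRCh37. The deposited table holds, per gene and library, the unnormalized read count and the FPKM, both made by the authors, and no coordinates; those printed come from GENCODE 44 and RefSeq on GRCh38, matched by identifier or symbol. Of 57905 identifiers 51996 had a GENCODE entry, as had all but 368 of the genes tested. Annotation release, strand setting and treatment of reads with several matches are not given in the sources used here. The labels name an mRNA library kit; the paper names poly(A) isolation or rRNA removal, without saying which preceded it.

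Counts were normalized by TMM and fitted with edgeR 4.0.16 (R 4.3.3, quasi-likelihood) over all 9 libraries. Adjusted p is by Benjamini-Hochberg over the 11587 genes, a call requires adjusted p under 0.05 together with a change of 1.5-fold or more, and each standard error is the fitted change divided by the square root of its F statistic. FPKM served as the filter (mean above 1) and for levels. Replicates of a group differed by more than sampling noise (chi-square per degree of freedom 2.52 to 14.4). On simulated counts for this comparison with 11587 genes, 91 of 100 genes changed 2-fold and 98 of 100 changed 3-fold were recovered, with 1 false call. Alternatives were DESeq2 1.42.0, limma 3.58.1 on log2(FPKM + 0.1) or log2(FPKM + 1), other size factors, filters and fold thresholds, the 6 libraries alone, a replicate block and each library left out.

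The comparison and the 19 gene lists were chosen with earlier results of these data known. The lists hold 535 genes, of which 383 were tested. Listed genes whose symbol matched no identifier, such as CCL3 and, in the NF-kappaB list, SOD2, were not read at any level. Genes were named by rule: MYC, EGR1, CCL2, CXCL8 and ZFP36L2, every gene called higher, the 20 largest decreases, called list members, up to 6 abundant uncalled members per list and up to 4 leading members per mRNA class. Promoters were matched by symbol for 46 of 63 lower, 7 of 11 higher and 8356 tested genes; exon and 3′UTR features are those of the canonical transcript.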

Additional observations from a re-analysis of the deposited data

Results flagged for a closer look

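For 8 of the 63 lower genes, a share near the 13% of all tested genes called higher at 24 h, the direction against the control differed between the times: they were lower at 30 min and higher at 24 h, and the difference between the times was tested in the same edgeR fit. The log2 difference of 24 h minus 30 min was 2.81 for IER3 (standard error 0.26, edgeR adjusted p = 1.4e-08), 2.31 for PRADX (0.13, edgeR adjusted p = 4.3e-12), 1.99 for CD69 (0.10, edgeR adjusted p = 2.0e-12), 1.88 for IL12A-AS1 (0.13, edgeR adjusted p = 1.3e-10), 1.72 for SMAD7 (0.15, edgeR adjusted p = 4.4e-09), 1.67 for ENSG00000207939 (0.14, edgeR adjusted p = 3.9e-09), 1.5 for PIM1 (0.06, edgeR adjusted p = 1.6e-14) and 1.31 for C3orf80 (0.07, edgeR adjusted p = 1.6e-12). CD69 stood at 12.4, 13.9 and 12.1 FPKM at 24 h against 8.07, 7.66 and 8.28 FPKM in the control, and PIM1 at 60.4, 60.2 and 62.1 FPKM against 32.0, 32.4 and 31.6 FPKM. IER3 was at 3.23, 4.06 and 4.22 FPKM at 24 h and at 1.17, 1.64 and 1.79 FPKM in the control. IL12A-AS1 and PRADX lie opposite IL12A and CTSD. The genes were chosen as low in the same 30 min libraries, and both comparisons share their controls. IER3, SMAD7 and PIM1 lose their call at 30 min without 1 of the libraries, as given with their values above. The culture time of the control is not given, so 24 h of matrine and 24 h of culture cannot be told apart.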

How the results depend on the processing

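No result changed direction under any alternative. Of the 63 genes called lower, 37 kept their call under every alternative that tested them, the 2-fold threshold aside, and of the 11 called higher 4 did. The replicate numbers did not pair the libraries: deviations of same-numbered libraries correlated at -0.08, -0.17 and 0.10, and a fit with the replicate block gave 63 lower and 11 higher genes. PLEKHA3P1 lost its call with the block (log2 fold change -1.30, edgeR adjusted p = 0.070), and a gene not among the 63 was called in its place.

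The counts moved mainly with the thresholds, by construction. With a mean FPKM above 5 (7010 genes), 40 were lower and 7 higher, with 4 calls left for immediate early factors, 2 for chemokines and cytokines and 1 for heat shock genes. Without a filter 70 were lower and 23 higher, and 0 PIM and SOCS genes were called. A 2-fold threshold left 23 lower and 1 higher; 3 immediate early factors, 1 MAPK feedback, 1 TGF-beta and 1 plasminogen gene were called, and 0 of the PIM, G-protein, heat shock, stress response and myeloid lists. Without a fold threshold 154 were lower and 34 higher, with 2 calls in the MYC network, 2 in the PIM list, 8 in the G-protein list, 3 in the stress response and 4 in the myeloid list. limma on log2(FPKM + 0.1) gave 60 lower and 10 higher and 2 calls in the G-protein list; on log2(FPKM + 1) it gave 52 lower and 7 higher and 0 heat shock calls, and the cause was not tested. DESeq2 gave 62 and 13, its size factors in edgeR 61 and 13, library totals alone 69 and 11, and the 6 libraries alone 61 and 9. The nonamer was found in 28.0% of lower genes, the pentamer in 92.0%.

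Leaving out each library in turn gave 59 to 63 lower genes and 9 to 18 higher ones, the 18 without replicate 2 of 30 min. Calls ranged from 4 to 8 for immediate early factors (4 without replicate 2 of the control), 0 to 1 for PIM and SOCS genes (0 without replicate 1 of 30 min) and 1 to 2 for the stress response (2 without replicate 1 of the control). With 3 libraries a group, depth limits genes of few reads such as MIR221, IER3 and TRGV9 most.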

Other observations

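Genes under the filter of 1 FPKM held a further 11 lower and 9 higher calls in the fit without it (18705 genes with at least 10 reads over the 6 libraries), all named here after their values were seen. Beside OSM, CCL20 and SPRY1, the lower ones included THAP10, with 46, 50 and 29 reads in the control and 26, 19 and 14 at 30 min (edgeR, log2 fold change -1.18, adjusted p = 0.026), and SLC31A2, a copper transporter gene, with 66, 48 and 51 against 27, 34 and 32 reads (edgeR, log2 fold change -0.92, adjusted p = 0.038). Among the higher ones CD48, a leukocyte surface glycoprotein, had 11, 12 and 10 reads in the control and 25, 39 and 28 at 30 min (edgeR, log2 fold change 1.37, adjusted p = 0.034), and HOXC-AS2, a lncRNA of the HOXC cluster, 12, 9 and 12 against 36, 30 and 25 (edgeR, log2 fold change 1.35, adjusted p = 0.043). All these genes lie near the limit of what the depth can show.

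Just outside the fold threshold, with an adjusted p below 0.05, stood ZNF764, PPP1R35 and PPP1R3D, with log2 fold changes of -0.58, -0.58 and -0.57, and on the other side SERTAD1 with 0.58. Just inside it stood TIGD2 with -0.59 and CLK1 with 0.61.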
